A study of Mus musculus with 8 samples.

Results

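Small GTPases of the Ras branch and the proteins that switch them on were followed in newborn mouse striatum with and without Ctip2, a zinc finger transcription factor of striatal projection neurons whose current gene symbol is Bcl11b. The group held 10 genes out of 18193 on the array: the Ras-like GTPases Rasl11a, Rasl11b, Rasl10a, Rasd1 and Rasd2, the exchange factors Rasgrp1, Rasgrp2, Rasgrf1 and Rasgrf2, and Rin1, which acts downstream of Ras. They were read by 22 of 45037 probe sets, all with a single gene symbol in the platform annotation. The genes were grouped by family with earlier results of these data known, and Rasl11b was picked on its fall in the null arrays, so its wild type to null difference is described here without a test and supports nothing else. Tissue came from 3 wild type, 1 Ctip2 heterozygous and 4 Ctip2 null mutant mice, all of strain BALB/c and taken at postnatal day 0, as punches of 500 µm from the central striatum in slices of 300 µm. Each array held RNA of a different animal. A punch contains every cell type of the region, so fewer cells of a type and less RNA per cell cannot be told apart. All values are log2 expression per probe set, normalized by the authors with RMA, a method that brings the arrays of a study to a common intensity distribution, and 1 unit is a doubling.

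Ras proteins are molecular switches that signal when they hold GTP and rest when they hold GDP. Exchange factors load them with GTP, GTPase-activating proteins return them to rest, and active Ras feeds kinase cascades such as the ERK pathway. In striatal projection neurons this route links dopamine and glutamate receptors to transcription. Rasgrp1 and Rasgrp2 are exchange factors opened by calcium and diacylglycerol, of which Rasgrp2 (CalDAG-GEFI) acts mainly on Rap1 and is known from the striatal matrix compartment. Rasgrf1 and Rasgrf2 respond to calcium through calmodulin. Rasd2 (Rhes) and Rasd1 (Dexras1) are related GTPases, the former enriched in adult striatum and the latter first described as induced by dexamethasone.

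The sequences before the transcription starts of Rasl11b, Rasgrp1 and Rasgrp2 are shown because these 3 genes had the lowest null values relative to wild type in the group. They are RefSeq windows of 250 bases on GRCm38.p6, the C57BL/6J reference and not the BALB/c genome of these mice, and 9 of the 10 genes had a window in the reference table. Capitals mark GGGCGG on either strand, the GC box bound by Sp1-family factors.

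Rasl11b, chr5:74195076-74195325, plus strand: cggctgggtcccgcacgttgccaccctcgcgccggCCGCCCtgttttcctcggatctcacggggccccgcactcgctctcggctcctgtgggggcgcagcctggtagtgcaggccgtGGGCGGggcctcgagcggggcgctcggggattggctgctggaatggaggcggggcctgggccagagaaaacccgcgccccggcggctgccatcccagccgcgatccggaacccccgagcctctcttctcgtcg

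Rasgrp1, chr2:117342878-117343127, minus strand: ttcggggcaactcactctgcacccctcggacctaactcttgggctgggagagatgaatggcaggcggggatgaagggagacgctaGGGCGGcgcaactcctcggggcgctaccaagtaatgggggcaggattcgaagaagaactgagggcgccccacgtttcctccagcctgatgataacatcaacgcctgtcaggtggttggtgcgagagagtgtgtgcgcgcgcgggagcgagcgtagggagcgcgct

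Rasgrp2, chr19:6399625-6399874, plus strand: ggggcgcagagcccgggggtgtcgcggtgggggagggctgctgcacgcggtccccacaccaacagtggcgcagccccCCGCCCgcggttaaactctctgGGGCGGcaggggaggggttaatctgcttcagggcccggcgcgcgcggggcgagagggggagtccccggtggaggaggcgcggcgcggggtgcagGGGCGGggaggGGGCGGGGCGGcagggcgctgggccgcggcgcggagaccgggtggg

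Rasgrp2, second start, chr19:6401455-6401704, plus strand: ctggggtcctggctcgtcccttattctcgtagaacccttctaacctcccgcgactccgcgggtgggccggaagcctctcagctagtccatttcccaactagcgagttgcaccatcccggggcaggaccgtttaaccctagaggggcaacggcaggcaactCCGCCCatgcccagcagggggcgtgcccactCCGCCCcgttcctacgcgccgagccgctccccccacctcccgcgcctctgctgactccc

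All 4 windows held the GC box, which occurs in 32.7% of the 32851 windows of this length in the table. It was also in the windows of Rasl10a (4 matches), Rasl11a (2) and Rasgrf1 (1), genes that were not called lower, and not in those of Rasd2, Rasgrf2 and Rin1. The Rasl11b window had 2 matches, beginning 215 and 133 bases before the start, that of Rasgrp1 had 1, and those of Rasgrp2 had 5 and 2, the pair nearest the start in the first window sharing a base. The share of G and C was high, at 74.0% for Rasl11b, 62.4% for Rasgrp1, and 79.6% and 67.2% for Rasgrp2, against a median of 52.4% over the table, and it ranged from 58.0% to 79.6% over the 10 windows of the group. TGACCA, the core bound by the paralogue Bcl11a, and TGACG, a CREB recognition core, were also searched on both strands and occur in 11.4% and 17.8% of windows. TGACCA was in 0 of the 10 windows of the group, and TGACG was in those of Rasl11a, Rasgrf1 and Rasgrf2. A match is a run of letters and not a shown binding site.

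The targeted gene followed the wild type and null labels: Bcl11b read 12.45, 12.00 and 12.42 in the wild type animals and 11.13, 11.10, 11.47 and 11.03 in the null ones. The heterozygote read 12.43, inside the wild type range, so this level does not check its label. Signal remained in every null array, and the labels do not state where the deletion lies, so the level checks the wild type and null labels by its direction only. The SD of log2 values over all probe sets ranged from 1.84 to 2.06 between arrays, and the median difference between null and wild type over all probe sets was -0.08. Markers of medium spiny neurons, the projection neurons of the striatum, averaged 10.09 to 10.24 in wild type and 9.77 to 9.93 in null arrays. Of 11 such markers limma called 4 lower at an adjusted p under 0.05, of which 1 is Bcl11b itself, and 2 were higher at an unadjusted p under 0.05. Without Bcl11b 3 of 10 were called lower (Ppp1r1b, Pde10a and Drd1), the average was 9.86 to 10.03 in wild type and 9.64 to 9.81 in null arrays, and the median difference was -0.22. Microglial markers averaged 7.10 to 7.18 in wild type and 7.36 to 7.85 in null arrays, with 0 of 8 called by limma, 6 of 8 at an unadjusted p under 0.05 and 2 at a SAM score beyond 2, all higher in null. The interneuron marker Lhx6 (difference 1.06, adjusted p = 0.0487) and the progenitor marker Sox2 (0.68, 0.0459) were called higher, each the only called gene of its list. The pallidal and interneuron list averaged 8.09 to 8.83 in wild type and 8.56 to 8.73 in null arrays, and the progenitor list 7.60 to 7.80 and 7.61 to 7.88, so both overlapped between groups. Choroid plexus markers varied within groups, with wild type 1 and null 2 highest in the choroid gene Ttr (13.34 and 13.44). Markers of pallial excitatory neurons averaged 5.43 to 5.47 in wild type and 5.19 to 5.36 in null arrays, below the array medians, with 0 of 7 called, 0 at an unadjusted p under 0.05 and 0 by SAM score. The heterozygote averaged above both groups on medium spiny neuron markers (10.66) and on the pallidal and interneuron list (9.01). It averaged below both on pallial (5.05), choroid plexus (5.39) and microglial markers (7.06), and inside both ranges on the progenitor list (7.62). The part of these shifts in the differences and heterozygote values described next was not tested.

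Rasl11b, an atypical Ras-like GTPase without the usual lipid anchor at its end, had the widest gap of the group between wild type and null striatum. Its only probe set, 1423854_a_at, read 9.87, 9.31 and 8.43 in wild type 1 to 3 and 7.26, 7.20, 7.18 and 6.64 in null 1 to 4. The means were 9.20 ± 0.72 (SD, n = 3) and 7.07 ± 0.29 (SD, n = 4), a difference of -2.13 or 4.38-fold. The wild type animals were spread over more than a unit while 3 of the null animals lay close together, and the lowest wild type array stood 1.17 above the highest null one. The heterozygote, which played no part in the choice of the gene, read 8.41, just under the lowest wild type array and 1.15 above the highest null array. That places it 0.37 of the way from the wild type mean to the null mean. The fraction was 0.26 to 0.47 with single wild type arrays left out and 0.50 with quantile normalization. Its scale is the gap on which the gene was picked.

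**Figure D1:**
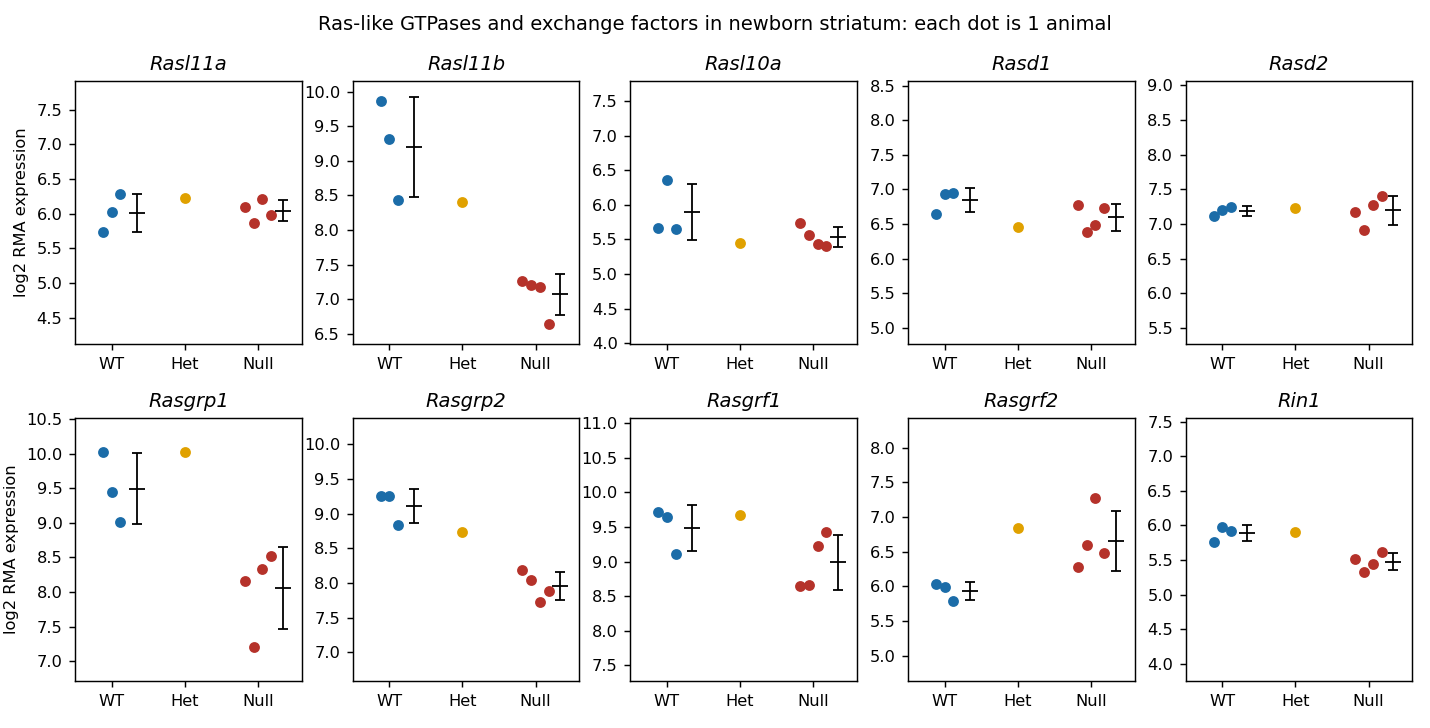
Log2 expression (vertical axis, each panel spanning the same range of 3.8 units) of the brightest probe set of each gene in wild type, heterozygous and null striatum; dots are animals and bars beside them the mean and SD. Wild type and null dots separate for Rasl11b, Rasgrp1, Rasgrp2, Rin1 and, in the opposite direction, Rasgrf2.

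The close relative Rasl11a, a GTPase tied to ribosomal RNA transcription, did not share this pattern. It read 5.74, 6.02 and 6.29 in wild type and 6.10, 5.86, 6.21 and 5.98 in null arrays, with 6.22 in the heterozygote. The groups overlapped fully, and the difference was 0.03 with a 95% interval of -0.32 to 0.37 (limma adjusted p = 0.929). Its sign turned in 5 of 18 alternative settings. All its values lay near the array medians of 6.21 to 6.35. Rasl10a, a neural GTPase also known as RRP22, was dimmer still. It read 5.67, 6.36 and 5.66 in wild type, 5.45 in the heterozygote and 5.73, 5.57, 5.43 and 5.41 in null arrays. The single high array, wild type 2, set most of the difference of -0.36 (interval -0.78 to 0.06, adjusted p = 0.304), which was -0.13 without it.

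Neither Rasd gene passed the test. Rasd2, on 1427344_s_at, read 7.11, 7.20 and 7.25 in wild type, 7.24 in the heterozygote and 7.17, 6.92, 7.28 and 7.41 in null arrays. The difference was 0.01 (interval -0.30 to 0.32, adjusted p = 0.971). Its other probe set, designed on the same transcript record, differed by 0.05 (interval -0.20 to 0.30). Rasd1 read 6.65, 6.93 and 6.95 in wild type, 6.45 in the heterozygote and 6.78, 6.38, 6.49 and 6.73 in null arrays. The groups overlapped, with a difference of -0.25 (interval -0.57 to 0.08, adjusted p = 0.344).

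Of the calcium- and diacylglycerol-responsive exchange factors, Rasgrp2 was called lower in null striatum on its brightest probe set and Rasgrp1 on a dimmer one. Rasgrp2, on its brightest probe set 1438933_x_at, read 9.25, 9.25 and 8.83 in wild type 1 to 3 and 8.19, 8.04, 7.72 and 7.89 in null 1 to 4. The wild type mean was 9.11 ± 0.24 (SD, n = 3) and the null mean 7.96 ± 0.20 (SD, n = 4). This 2.23-fold fall had a limma adjusted p of 0.00808, and the groups were 0.64 apart. The suffix of this probe set marks probes that can also hybridise to other transcripts. A further Rasgrp2 probe set, 1438932_at, read 9.32, 8.81 and 8.61 against 7.93, 7.94, 7.43 and 8.28 and also fell (difference -1.02, adjusted p = 0.0472). The third, 1417804_at, read 7.31, 7.45 and 6.87 against 6.58, 6.69, 6.58 and 6.25, without overlap but short of the threshold (difference -0.69, adjusted p = 0.0709). The fourth and dimmest, 1442264_at, overlapped between groups (-0.09, interval -0.50 to 0.32). The call on 1438933_x_at was lost when the SD of each array entered the fit (adjusted p = 0.0529) and when the arrays with most Ttr, wild type 1 and null 2, were left out (0.0573), at differences of -1.15 and -1.11. That on 1438932_at was lost without any 1 array except null 4, at 0.0689 to 0.133 with differences of -1.17 to -0.82. It was also lost with each array centred on its median (0.0852), with the heterozygote counted as a control (0.101), with array SD in the fit (0.260) and without wild type 1 and null 2 (0.156).

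Rasgrp1, the exchange factor for Ras itself in this pair, was lower in null than in every wild type array on all 4 of its probe sets, 1 of which passed. On 1450143_at it read 7.01, 6.67 and 6.58 in wild type and 5.91, 5.72, 5.68 and 5.85 in null arrays. The wild type mean of 6.75 ± 0.23 (SD, n = 3) stood above a null mean of 5.79 ± 0.11 (SD, n = 4), a 1.94-fold fall at a limma adjusted p of 0.00935. Its brightest probe set, 1434295_at, read 10.03, 9.44 and 9.01 against 8.16, 7.21, 8.34 and 8.53. The difference of -1.43 was larger but the null arrays were more scattered, null 2 being lowest, and it just missed the threshold at an adjusted p of 0.0525 (interval -2.15 to -0.72). The remaining probe sets differed by -0.64 (adjusted p = 0.0633) and -0.50 (adjusted p = 0.137). Without wild type 1 and null 2 the difference was -0.81 on 1450143_at (adjusted p = 0.0605) and -0.89 on 1434295_at (0.0835), while 1434295_at was called without null 4 (0.0319). In the same arrays the medium spiny neuron markers Ppp1r1b and Pde10a, encoding DARPP-32 and the striatal phosphodiesterase, fell 2.46-fold and 2.06-fold, whereas Isl1 and Ebf1 of the same list differed by 0.69 (adjusted p = 0.183) and 0.51 (0.0939) and Penk and Tac1 by 0.21 and 0.14.

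**Figure D2:**
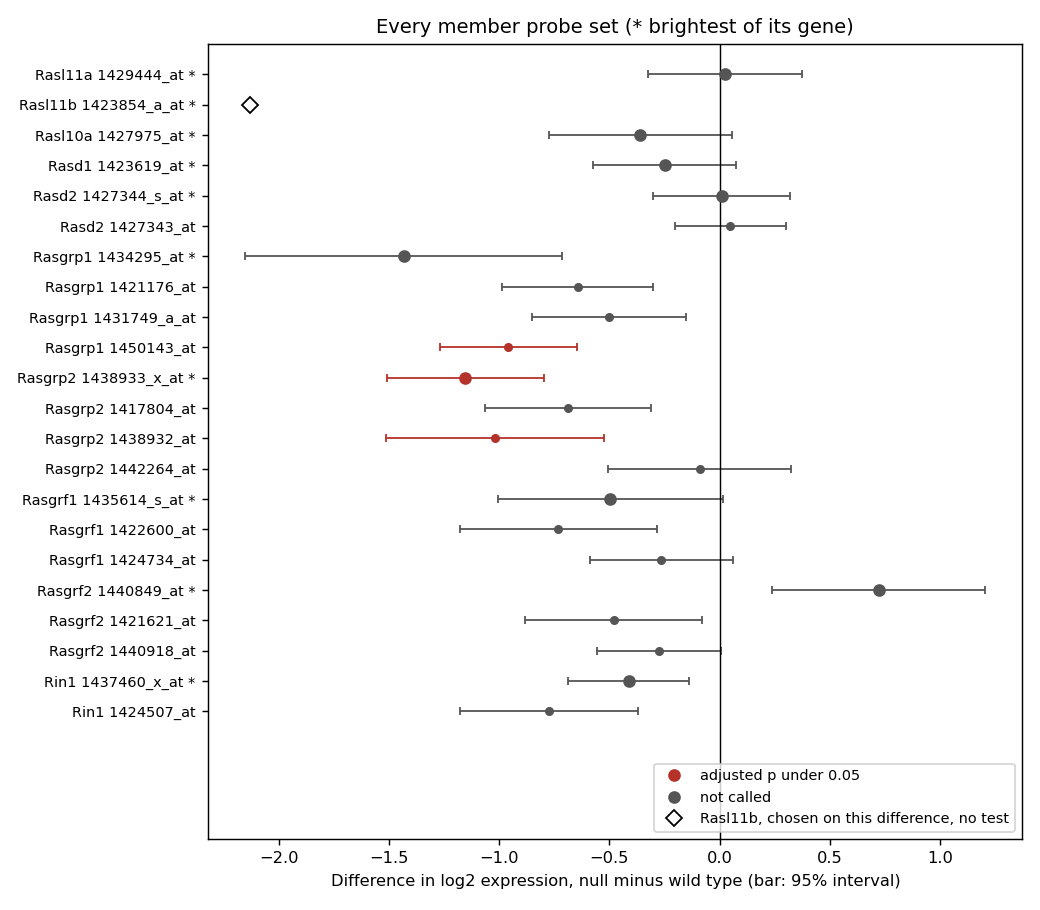
Difference in log2 expression between null and wild type striatum (horizontal axis) for all 22 probe sets, with limma 95% intervals; red points have an adjusted p under 0.05 and the open diamond is Rasl11b, shown without a test. The 4 Rasgrp1 and 3 of the 4 Rasgrp2 probe sets lie wholly below 0, whereas those of Rasgrf2 lie on both sides.

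The calmodulin-dependent exchange factors did not pass. Rasgrf1, an imprinted gene expressed from the paternal copy in brain, read 9.71, 9.64 and 9.10 in wild type and 8.64, 8.67, 9.23 and 9.43 in null arrays on 1435614_s_at. Null 3 and 4 lay within the wild type range, and the difference was -0.50 (interval -1.01 to 0.02, adjusted p = 0.265). On 1422600_at, where the groups touched but did not overlap (lowest wild type 7.83, highest null 7.82), the difference was -0.73 (adjusted p = 0.0985, and 0.0450 without wild type 3, the lowest of its group). The third probe set differed by -0.26 (adjusted p = 0.323).

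Rasgrf2 gave opposite signs on its probe sets. The brightest, 1440849_at, read 6.04, 5.99 and 5.79 in wild type, 6.84 in the heterozygote and 6.28, 6.60, 7.28 and 6.48 in null arrays, a difference of 0.72 without overlap (interval 0.24 to 1.21, adjusted p = 0.125). Its 2 dimmer probe sets differed by -0.48 (adjusted p = 0.199) and -0.27 (adjusted p = 0.265), with overlap. Averaged over its probe sets the gene differed by -0.01, so no direction can be given for it.

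Rin1, a Ras effector that also activates Rab5 and Abl kinases and is known from forebrain neurons, was lower in null than in every wild type array on both probe sets, and neither passed. Its brightest probe set, 1437460_x_at, carries the same suffix as that of Rasgrp2, with the same limit. On this probe set Rin1 read 5.76, 5.98 and 5.92 in wild type and 5.51, 5.33, 5.45 and 5.61 in null arrays (difference -0.41, adjusted p = 0.125). On 1424507_at it read 4.91, 5.62 and 5.13 against 4.70, 4.28, 4.45 and 4.36 (difference -0.77, adjusted p = 0.0603, and 0.0303 without wild type 1). Both lie below the array medians in all 8 arrays.

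Counted over the 9 genes other than Rasl11b, 1 was lower (Rasgrp2), 0 were higher and 8 did not pass on the brightest probe set. Over all genes 0.676% were called lower and 2.38% higher by the same rule. At an unadjusted p under 0.05, 3 of the 9 were lower and 1 higher, and at a SAM score beyond 2, the statistic of the original study with the median standard error added to the denominator, 2 were lower and 0 higher. The shares over all genes were 9.88% lower and 12.3% higher at an unadjusted p under 0.05, and 1.09% lower and 3.98% higher by SAM score. Of the 21 probe sets of these genes, 3 were called lower, all of Rasgrp1 or Rasgrp2, and 0 higher, beside 0.453% and 1.87% of all probe sets. The groups stood apart without overlap on 10 of the 21 with null lower and on 1 with null higher, where the shares over all probe sets were 8.85% and 7.7%. The 10 comprised 4 of Rasgrp1, 3 of Rasgrp2, 2 of Rin1 and 1 of Rasgrf1, and probe sets of a gene share their transcript and animals. The median difference was -0.36 over the 9 brightest probe sets and -0.08 over all genes.

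The heterozygote did not take a single position on these genes, and being 1 animal it allows no test. Its array also lay outside both groups on several marker lists, as given above. On Rasgrp2 it read 8.73 on 1438933_x_at, between the groups and 0.10 below the lowest wild type array, 8.63 on 1438932_at, inside the wild type range, 7.66 on 1417804_at, above it, and 5.66 on 1442264_at, below all 7 other arrays. On Rasgrp1 it read 10.02 on 1434295_at and 7.45 on 1421176_at, both inside the wild type range, 6.55 on 1450143_at, 0.03 under that range, and 5.75 on 1431749_a_at, inside the null range. On Rasgrf1 it lay in the wild type range on all 3 probe sets. On Rasgrf2 it lay in the null range on 1440849_at and 1421621_at, which differed in opposite directions, and in the wild type range on 1440918_at. Of the 21 probe sets, 11 had the heterozygote inside the wild type range.

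**Figure D3:**
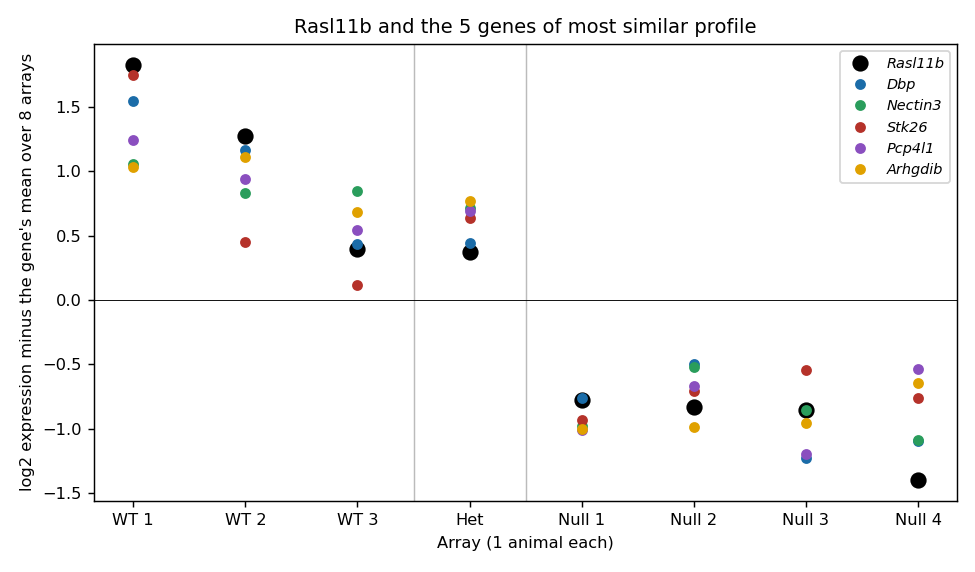
Log2 expression of Rasl11b (black) and the 5 genes of most similar profile, each centred on its own mean over the 8 arrays (vertical axis), by array (horizontal axis). All 6 genes lie above 0 in wild type and heterozygous arrays and below 0 in null arrays.

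The genes whose profile over the 8 arrays came closest to that of Rasl11b, by root mean square difference of centred log2 values among 9095 genes above the median expression, were Dbp (0.24), Nectin3 (0.41), Stk26 (0.42), Pcp4l1 (0.44) and Arhgdib (0.44). Dbp, a clock-controlled transcription factor, read 9.48, 9.10 and 8.38 in the wild type animals and 8.38 in the heterozygous one. In the null animals it read 7.18, 7.44, 6.71 and 6.84. The wild type order matched that of Rasl11b, but the ranking that picked Dbp used these same arrays, so the match is no separate support. The null order differed from that of Rasl11b, which read 7.26, 7.20, 7.18 and 6.64. Stk26 encodes a kinase and Nectin3 a cell adhesion protein. Among the other 9 genes of the group Rasgrp2 came nearest, at rank 16 with a distance of 0.55, and Rasgrp1 next, at rank 33 with 0.66. Rasgrf1 stood at rank 319 and Rasd2 at rank 4526, the rest being too dim to be ranked. The measure uses the same 8 arrays for every gene and includes the step between groups by which Rasl11b was picked.

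The wider Ras pathway was read through 5 lists. Of 99 measured genes 1 was lower, 2 were higher and 96 did not pass, shares close to the 0.676% and 2.38% over all genes. Among 16 GTPase-activating proteins Rasal1, which shuts off Ras in response to calcium, read 7.64, 7.91 and 7.39 in wild type, 7.44 in the heterozygote and 6.95, 6.78, 7.06 and 6.97 in null arrays. It fell 1.63-fold (adjusted p = 0.0396). Among 18 other exchange factors Kndc1, a brain Ras exchange factor of dendrites, rose 1.84-fold (adjusted p = 0.0488), from 7.11, 6.38 and 6.62 to 7.49, 7.59, 7.90 and 7.35, with the heterozygote at 7.53. Among 16 feedback regulators and ERK targets Dusp4, a phosphatase that inactivates ERK, rose 3.27-fold (adjusted p = 0.0266), from 7.38, 7.31 and 7.46 to 8.78, 9.25, 10.01 and 8.34. The heterozygote read 9.42 on Dusp4, inside the null range. Counting it as a control ended the calls of Dusp4 (1.20, adjusted p = 0.454), Kndc1 (0.67, 0.363) and Rasal1 (-0.65, 0.0907). With single arrays left out, Rasal1 passed in 1 of 7 limma fits, Kndc1 in 2 and Dusp4 in 3, with adjusted p values reaching 0.140, 0.181 and 0.110. Leaving out wild type 1 and null 2 together ended the calls of Rasal1 (difference -0.66, adjusted p = 0.142), Kndc1 (1.08, 0.0593) and Dusp4 (1.66, 0.121). So did centring each array on its median (-0.65, 0.94 and 1.77) or entering its SD in the fit (-0.67, 0.52 and 1.16).

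The core switches themselves were not called. Of 26 classical and Ras-like GTPases 0 passed in limma, 2 were lower and 8 higher at an unadjusted p under 0.05, and 0 had a SAM score beyond 2. Their median difference was 0.26, beside -0.08 over all genes, and the ends of the range were Rem2 at -0.45 (adjusted p = 0.133) and Rit2, a neuronal GTPase, at 1.05 (0.0987). Of 23 Ras effectors and ERK cascade genes 0 passed, with 0 lower and 5 higher at an unadjusted p under 0.05 and 1 higher by SAM score, and the median was -0.07. The list medians were 0.04 for the exchange factors, 0.04 for the GTPase-activating proteins and 0.06 for the feedback regulators.

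**Figure D4:**
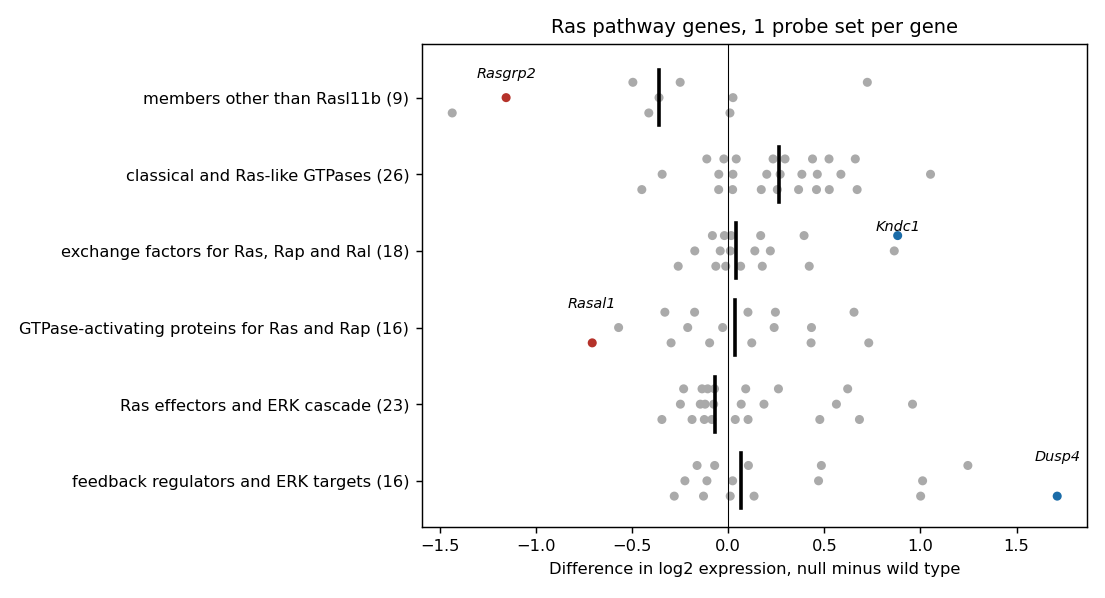
Difference in log2 expression between null and wild type striatum (horizontal axis) for the 9 tested genes of the group and the 5 pathway lists, 1 dot per gene, with the number of genes in brackets and the median as a black line; red and blue dots are called lower and higher. Rasgrp2 and Rasal1 are the called falls, Kndc1 and Dusp4 the called rises.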

How the data were processed

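Striatal RNA of 8 mice was hybridised to 1 Affymetrix array each. The deposited values are log2 expression per probe set. The authors computed them using Bioconductor's RMA, per the labels; neither a version nor a filter is stated there. Because RMA pulls arrays to a common distribution and compresses dim signals, folds of weakly expressed genes may be understated. Of 45037 probe sets 34945 carry 1 gene symbol, 932 several and 9160 none. Symbols came from the platform annotation, updated by gene identifier through a RefSeq table (GRCm38.p6), where 204 did not match.

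Wild type (n = 3) and null (n = 4) arrays were compared with limma 3.58.1 (R 4.3.3; lmFit, eBayes) on all probe sets, with Benjamini-Hochberg adjustment over all of them and a threshold of 0.05. The heterozygote was left out of that fit. A gene was read through its probe set of highest mean over those 7 arrays. The limma fit was also run on simulated data with independent noise per probe set. Those data held no shift common to an array, so that run does not cover such shifts. Named genes are all members, Bcl11b, the called genes of each pathway list (at most 2 per direction), the 5 profiles nearest Rasl11b and markers of lists that moved; genes at the ends of a list's range and the heterozygote's examples were chosen after their values were seen. Members and lists were chosen with earlier results of these data known. Same-numbered arrays were not treated as pairs in that fit. Figures used matplotlib 3.10.9. The number of arrays limits the precision.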

Additional observations from a re-analysis of the deposited data

Results flagged for a closer look

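In the null group, animal 4 lay below the others on Rasl11b, at 6.64 against 7.18 for the next lowest and 7.26 for the highest. Its gap to the nearest animal is 0.87 of the group's range, beyond Dixon's 95% limit of 0.829 for 4 values. That limit does not strictly hold here, since Rasl11b was picked on its fall in the null arrays. Without this animal the difference between null and wild type was -1.99 instead of -2.13. The 4 null values of all 22 probe sets were examined in this way and this was the only 1 that stood out. Chance marks about 1 group in 20, so 1 flag among 22 is about the number that chance gives.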

How the results depend on the processing

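Rasgrp1 kept its sign in all 18 alternatives, at -1.67 to -0.89, as did Rasgrp2 (-1.33 to -0.74). Leaving out arrays could not turn these signs, because the groups did not overlap on the brightest probe sets. SAM, the trended robust prior and a mean of at least 6 reuse the same difference. Rasl11b ranged from -2.56 to -1.75, and its constant sign is no support, since it was picked on this difference in the same arrays. The causes of the moves below were not tested. Of the 9 tested genes 1 was lower, and 2 were with SAM, the trended robust prior, a mean of at least 6, quantile normalization, the replicate block or a threshold of 0.10, 3 with array weights or the mean over a gene's probe sets, 0 with the SD covariate or without the pair highest in Ttr, and 1 to 2 with single arrays left out. Of their probe sets 3 were lower, against 7 with SAM or array weights, 5 with the trended prior or quantile normalization, 8 at 0.10, 1 with the SD covariate and 0 without the Ttr pair. The replicate numbers gave no sign of pairing: same-numbered arrays had correlations of -0.25, -0.31 and -0.17, and differently numbered ones -0.42 to 0.37. These correlations do not settle whether arrays were paired. In the pathway lists 1 gene was lower and 2 higher. The lower count was 2 with array weights or quantile normalization, 0 with centred arrays, the heterozygote among the controls, the replicate block, the SD covariate or without the Ttr pair, and 0 to 1 with single arrays left out. The higher count was 5 with SAM, 10 with array weights, 9 with the replicate block, 6 at 0.10, 0 with centred arrays, the heterozygote among the controls, the SD covariate or without the Ttr pair, and 0 to 8 with single arrays left out. Signs turned only for uncalled genes: Rasl11a at -0.0695 with array weights, -0.0269 with the heterozygote among the controls and -0.0536 without the Ttr pair (-0.11 to 0.16 with single arrays left out), Rasd2 at -0.0551 with array weights, -0.0622 with the replicate block, -0.0251 with quantile normalization and -0.0033 with the heterozygote among the controls (-0.0622 to 0.10), and Rasgrf2 at -0.0108 as the mean over probe sets. Over all genes 123 were lower and 433 higher, against 205 and 408 with quantile normalization, 55 and 96 with the SD covariate, 60 and 55 once the heterozygote joined the controls, 39 and 203 without the Ttr pair, and 46 to 206 and 111 to 897 with single arrays left out. With array weights 2.57% of all genes were lower and 7.1% higher, with the replicate block 0.665% and 4.58%, and at 0.10 1.41% and 4.58%. SAM gave 1.09% and 3.98%, and the mean over a gene's probe sets 1.13% and 3.01%. The higher list counts rose with array weights, the replicate block, SAM and 0.10, as did the higher share over all genes. The heterozygote's position on Rasgrp2, 0.33, moved to 0.57 with quantile normalization, an alternative added after the data were seen, as were those for member probe sets.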
